A study of Rattus norvegicus with 12 samples.

Results

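The insulin-like growth factor 1 (IGF1) axis was followed in the urinary bladder of female Wistar rats after the spinal cord had been cut. The genes described are the ligand Igf1, the receptors Igf1r and Igf2r, and the binding protein genes Igfbp2, Igfbp3, Igfbp4, Igfbp5, Igfbp6 and Igfbp7. They were taken by name from the gene count table and are 9 of the 40154 genes it lists. Bladders came from rats aged 10 to 12 weeks. The control rats are labelled as normal, with no operation recorded. The other groups had a complete transection of the cord, at thoracic segment 10 per the labels and at segments 9 to 10 per the design text, and their bladders were taken 7, 14 or 28 days later. Each of the 4 groups has 3 libraries of total RNA depleted of ribosomal RNA. The labels number the libraries as replicates without tying each one to a rat, so the p-values measure the spread between these libraries.

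IGF1 is a growth factor made by the liver under the control of growth hormone and, locally, by many tissues. It acts through IGF1R, a tyrosine kinase receptor that signals through the PI3 kinase and MAP kinase pathways. IGF2R has no kinase activity. It takes up IGF2 for breakdown and carries enzymes tagged with mannose 6-phosphate to the lysosome. The IGF binding proteins hold the ligands outside the cell and limit or prolong their access to the receptor, and proteases release the ligand by cutting them. IGFBP7 is a related secreted protein of vessel walls and matrix that binds IGFs only weakly. The bladder of a cord-injured animal cannot empty normally, and its wall thickens and its muscle grows.

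On the authors' coordinates, given on rn6 per the submitters' processing notes, Igf1 lies at chr7:28412123-28491815 and Igfbp6 on the same chromosome at chr7:143749385-143754018. The receptor genes are both on chromosome 1, Igf1r at chr1:128924921-129213816 and Igf2r at chr1:48176095-48264482. Igfbp2 at chr9:80118029-80144804 and Igfbp5 at chr9:80154230-80166813 are neighbours on opposite strands with 9425 bases between them. Igfbp3 at chr14:87457647-87465374 lies 3863 bases from Igfbp1, Igfbp7 is at chr14:33010300-33070193 and Igfbp4 at chr10:86950555-86962563. A gene on the opposite strand, Mas1l, overlaps 30808 bases of Igf2r. It held 6206 counts over all libraries against 197331 for Igf2r. The labels and files do not state if strand entered the counting.

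Promoters are shown for Igf1 and Igfbp4, the members with the widest rise, and for Igfbp3 and Igfbp5, the members lower at every day, because these genes moved in opposite directions in the same bladders. All 9 members matched the RefSeq promoter table of build GRCr8, and the 100 bases before the start are printed 5′ to 3′ with matches to the searched motifs in capitals.
Igf1 promoter, chr7:24172432-24172531, plus strand: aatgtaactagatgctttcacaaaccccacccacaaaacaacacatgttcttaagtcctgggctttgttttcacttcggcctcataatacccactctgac
Igfbp3 promoter, chr14:86277945-86278044, minus strand: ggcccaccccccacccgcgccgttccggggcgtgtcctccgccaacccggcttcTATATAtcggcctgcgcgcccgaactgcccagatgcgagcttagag
Igfbp4 promoter, chr10:84491371-84491470, plus strand: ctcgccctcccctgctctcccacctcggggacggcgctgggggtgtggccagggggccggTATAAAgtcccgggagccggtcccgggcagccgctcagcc
Igfbp5 promoter, chr9:81914188-81914287, minus strand: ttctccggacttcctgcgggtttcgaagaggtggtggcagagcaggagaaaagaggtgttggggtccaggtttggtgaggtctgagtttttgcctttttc
The 5 motifs searched, on both strands, were TATAAA for the TATA box, its variant TATATA, which can overlap with it, then GGGCGG for the GC box, CACGTG for the E-box and the CCAAT box. TATATA began 46 bases before the start of Igfbp3, the member that fell most, and is present in 2.35% of 33469 promoters of this length. TATAAA began 40 bases before the start of Igfbp4, a member that rose, and is present in 5.78% of them. CACGTG was found in Igf1r and Igf2r (2.79% of promoters) and GGGCGG in Igfbp2 and Igfbp7 (21.6% of promoters). These motifs were not found in this window of Igf1, Igfbp5 or Igfbp6. A match describes letters and shows no bound factor. The G and C content of the window ran from 43.0% in Igf1 to 79.0% in Igf1r, and the median of all promoters was 54.0%.

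Libraries held 26.3 to 30.7 M counts, and 17687 genes passed a filter on low counts, all 9 members among them. The defining cells of bladder, urothelium and smooth muscle, had all of their markers (8 of 8 each) present in every group. Levels of different genes are compared in TPM (a level that divides by gene length). Changes are given in CPM (counts scaled to library size after TMM scaling) and as log2 fold changes ± SE from edgeR's quasi-likelihood test, with p-values adjusted by the Benjamini-Hochberg method over all genes tested. The threshold for calling a gene was an adjusted p of 0.05.

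In control bladder the binding proteins stood above the ligand and its receptor. Igfbp7 (632 TPM ± 38.1, SD, n = 3) and Igfbp3 (620 TPM ± 105) were highest and their ranges overlapped. Igfbp6 followed at 400 TPM ± 29.3, then Igfbp5 at 292 TPM ± 17.1 and Igfbp2 at 273 TPM ± 9.15, whose ranges overlapped. Igf2r (126 TPM ± 9.23) and Igfbp4 (106 TPM ± 24.9) overlapped, as did Igf1 (40.4 TPM ± 8.45) and Igf1r (34.6 TPM ± 2.26) at the bottom. At day 7 the order was different: Igfbp4 stood at 570 TPM ± 46.5 and Igf1 at 217 TPM ± 97.6, while Igfbp3 was at 46.3 TPM ± 2.85, below the range of Igfbp5. Igf1r remained the lowest at 23.1 TPM ± 1.55. At day 14 Igf1 was back at 32.3 TPM ± 5.70 and its range overlapped that of Igf1r.

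After injury the ligand and 3 binding protein genes rose at day 7, while Igfbp3 and Igfbp5 fell and were still lower at day 28. At day 7 Igf1, Igf2r, Igfbp2, Igfbp4 and Igfbp7 were higher than in control and Igf1r, Igfbp3 and Igfbp5 lower, so that 8 of 9 members were called. Of all genes tested, 26.1% were called at day 7, 15.6% higher and 10.5% lower. At day 14 only Igfbp3 and Igfbp5 were called, both lower (2 of 9, where 2.45% of all genes were called, 0.995% as lower). At day 28 Igfbp3 and Igfbp5 were lower and Igfbp4 higher (3 of 9, where 18.5% of all genes were called, 7.51% as lower). The same control libraries serve all 3 comparisons, so the days are not independent of one another on the control side.

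**Figure D1:**
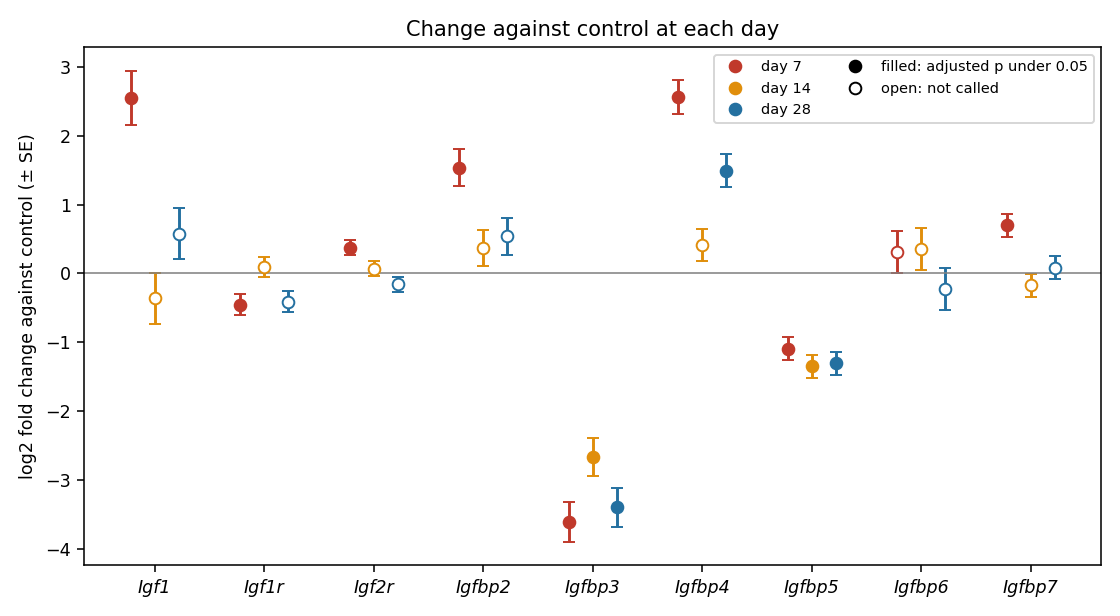
Log2 fold change against control (vertical axis, ± SE) of the 9 members at days 7, 14 and 28, with filled points for an adjusted p under 0.05 and open points for the rest. Igfbp3 and Igfbp5 lie below 0 with filled points at every day, whereas Igf1 and Igfbp2 have a filled point above 0 at day 7 only.

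Igf1, the ligand, had the widest spread within a group of any member, 2.60-fold between the lowest and the highest day-7 library. Control libraries held 114, 177 and 149 CPM and day-7 libraries 468, 1218 and 897 CPM, so the groups did not overlap. The day-14 libraries held 89.3, 123 and 131 CPM and the day-28 libraries 135, 342 and 180 CPM. All day-7 values stood above every other library, and the day-14 and day-28 ranges overlapped with control. The change at day 7 was 2.55 ± 0.39 (adjusted p = 0.000923), a 5.87-fold higher level. The value was −0.36 ± 0.37 at day 14 (adjusted p = 0.679) and 0.58 ± 0.37 at day 28 (adjusted p = 0.317). Without the second day-28 library, the highest of its group, the day-28 value was 0.10. Between days, Igf1 fell by 2.91 ± 0.40 from day 7 to day 14 (adjusted p = 0.000781) and was lower at day 28 than at day 7 (−1.98 ± 0.38, adjusted p = 0.00549). From day 14 to day 28 the value was 0.94 ± 0.37 with an adjusted p of 0.190, and 0.46 without the second day-28 library.

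Igf1 has 8 transcript models in the authors' mRNA table, where a read can count for several of them. The longest models, of 6843 to 6966 bases, took 86.4% to 87.2% of the gene's count on average in control and 87.0% to 87.9% at day 7. A model of 1879 bases took 32.3% ± 2.21 in control, 33.9% ± 0.73 at day 7, 34.2% ± 2.44 at day 14 and 35.1% ± 0.99 at day 28, with overlapping ranges. The makeup of Igf1 reads over its models therefore moved by a few percentage points while the gene's level moved several fold. Igf1r has 3 models, and the mean share of its 4693-base model was between 56.9% and 57.8% in all 4 groups.

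The receptor genes moved little, and in opposite directions at day 7. Igf1r, the signalling receptor, held 194, 205 and 183 CPM in control, 145, 133 and 147 CPM at day 7, 234, 183 and 206 CPM at day 14 and 186, 131 and 121 CPM at day 28. Its day-7 libraries lay below all controls, the day-14 libraries overlapped with control, and the first day-28 library fell within the control range while the other two lay below it. Igf1r was lower at day 7 by −0.45 ± 0.15 (adjusted p = 0.0445) and stood at −0.41 ± 0.15 at day 28 (adjusted p = 0.0830). It was higher at day 14 than at day 7 (0.55 ± 0.15, adjusted p = 0.0258). That call was lost on leaving out the second or the third day-7 library or the first or the third day-14 library (adjusted p = 0.0506 to 0.0960). At day 28 without the first day-28 library the value was −0.63 with an adjusted p of 0.00523.

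Igf2r, the clearance receptor, held 567, 555 and 506 CPM in control and 723, 698 and 693 CPM at day 7, all above the controls. At day 14 it held 543, 593 and 575 CPM and at day 28 564, 476 and 419 CPM, ranges that overlap with control. It was higher at day 7 by 0.38 ± 0.11 (adjusted p = 0.0281) and lower at day 28 than at day 7 (−0.53 ± 0.11, adjusted p = 0.00776). The day-7 calls of both receptor genes are small in size and were lost on leaving out any single library of either group. Adjusted p-values then ran up to 0.128 for Igf1r and up to 0.108 for Igf2r.

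**Figure D2:**
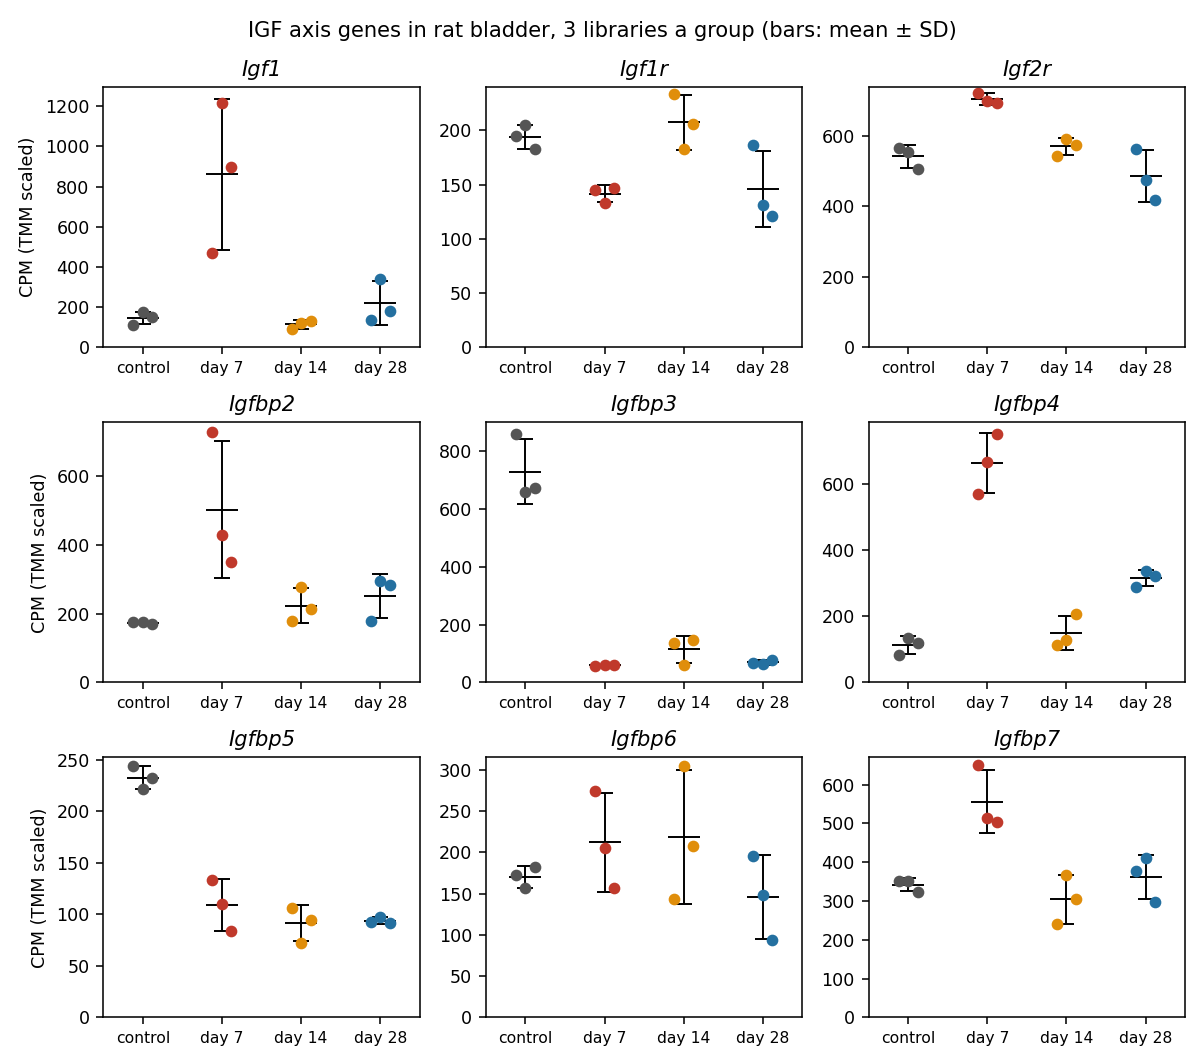
CPM after TMM scaling (vertical axis, each panel on its own scale from 0) of the 9 members in control and at days 7, 14 and 28, with 1 point per library and bars for the mean ± SD. Igfbp3 is at 656 to 858 CPM in control and at or below 146 CPM in every library after injury, and Igfbp4 is at 570 to 752 CPM at day 7 and 289 to 337 CPM at day 28.

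Igfbp3 encodes the main IGF carrier of blood, where it forms a ternary complex with the acid labile subunit, and it is also made by stromal and vessel wall cells. Control libraries held 858, 656 and 671 CPM, day-7 libraries 57.5, 60.5 and 60.5 CPM, day-14 libraries 137, 60.1 and 146 CPM and day-28 libraries 65.5, 62.9 and 79.0 CPM. The highest of the 9 libraries from injured rats, at 146 CPM, stood far below the lowest control. Igfbp3 was 12.2-fold lower at day 7 (−3.61 ± 0.29, adjusted p = 4.9e-05), 6.36-fold lower at day 14 (−2.67 ± 0.27, adjusted p = 0.00407) and 10.5-fold lower at day 28 (−3.40 ± 0.28, adjusted p = 7.37e-05). By p-value it ranked 15 at day 7, 3 at day 14 and 18 at day 28 among all genes tested. It was called higher at day 14 than at day 7 (0.95 ± 0.26, adjusted p = 0.0270), although the second day-14 library lay within the day-7 range. That call was lost in a fit of only the 2 groups (adjusted p = 0.0808) and on leaving out any single library of either day except that second day-14 library, with adjusted p-values up to 0.0927.

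Igfbp5, whose product binds matrix and bone mineral as well as IGFs, fell less and more evenly. Control libraries held 244, 221 and 232 CPM, day-7 libraries 134, 110 and 83.6 CPM, day-14 libraries 107, 72.6 and 94.9 CPM and day-28 libraries 93.1, 97.7 and 91.3 CPM. All injured libraries lay below all controls, and the injured groups overlapped with one another. The change was −1.09 ± 0.17 at day 7 (adjusted p = 0.000912), −1.35 ± 0.17 at day 14 (adjusted p = 0.00748) and −1.31 ± 0.17 at day 28 (adjusted p = 0.000509). None of the comparisons between days was called for Igfbp5. Its neighbour Igfbp2 had the opposite direction at day 7.

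Igfbp4 encodes a binding protein that mostly restrains IGF action until it is cut by PAPP-A. Control libraries held 82.1, 136 and 118 CPM and day-7 libraries 570, 668 and 752 CPM. Day-14 libraries held 112, 127 and 208 CPM and day-28 libraries 289, 337 and 322 CPM. The day-7 and day-28 groups lay above control and apart from each other, and the day-14 group overlapped with control. The change was 2.57 ± 0.24 at day 7 (adjusted p = 0.000102), a 5.92-fold higher level. It was 0.41 ± 0.23 at day 14 (adjusted p = 0.390) and 1.49 ± 0.24 at day 28 (adjusted p = 0.00171). Igfbp4 was lower at day 14 than at day 7 (−2.15 ± 0.24, adjusted p = 0.000316) and lower at day 28 than at day 7 (−1.07 ± 0.23, adjusted p = 0.00935).

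Igfbp4 was also the 1 member of 9 called between day 14 and day 28, where 4.34% of all genes were called (1.08 ± 0.23, adjusted p = 0.0278). All 3 day-28 libraries were above all 3 day-14 libraries. The call was lost in a fit of only the 2 groups (adjusted p = 0.0981) and on leaving out the first or second day-14 library or the second or the third day-28 library (adjusted p = 0.0746 to 0.0951).

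Igfbp2 encodes a binding protein that is abundant in fetal life and holds an integrin-binding motif. Control libraries held 175, 175 and 169 CPM, day-7 libraries 728, 430 and 350 CPM, day-14 libraries 178, 277 and 214 CPM and day-28 libraries 177, 294 and 283 CPM. Every injured library was above the highest control, by a narrow margin in the first library of days 14 and 28. The change was 1.54 ± 0.27 at day 7 (adjusted p = 0.00206), 0.37 ± 0.27 at day 14 (adjusted p = 0.522) and 0.54 ± 0.27 at day 28 (adjusted p = 0.188). Igfbp2 was lower at day 14 than at day 7 (−1.17 ± 0.27, adjusted p = 0.0119), with an adjusted p of 0.0513 without the first day-14 library. It was lower at day 28 than at day 7 (−0.998 ± 0.27, adjusted p = 0.0242). That call was lost in a fit of only the 2 groups (adjusted p = 0.0762), without the first day-28 library (adjusted p = 0.0724) and without the first day-7 library, where the value was −0.63 (adjusted p = 0.0733).

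Igfbp7 held 351, 352 and 323 CPM in control, 650, 514 and 505 CPM at day 7, 240, 367 and 306 CPM at day 14 and 379, 410 and 298 CPM at day 28. Only the day-7 libraries stood clear of control. The change was 0.70 ± 0.17 at day 7 (adjusted p = 0.0103), −0.17 ± 0.17 at day 14 (adjusted p = 0.661) and 0.08 ± 0.17 at day 28 (adjusted p = 0.779). Igfbp7 was lower at day 14 than at day 7 (−0.87 ± 0.17, adjusted p = 0.00511) and lower at day 28 than at day 7 (−0.62 ± 0.17, adjusted p = 0.0247). The last call was lost with no TMM factor (adjusted p = 0.0582), in a fit of only the 2 groups (adjusted p = 0.0512), without the first day-7 library (adjusted p = 0.0724) and without the last-numbered day-28 library (adjusted p = 0.0903).

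Igfbp6, whose product prefers IGF2 over IGF1, was the member not called in any comparison. Control libraries held 172, 156 and 183 CPM, day-7 libraries 275, 205 and 156 CPM, day-14 libraries 143, 304 and 207 CPM and day-28 libraries 195, 149 and 93.6 CPM. Each injured group had libraries on both sides of the control mean of 170 CPM ± 13.2. The values were 0.31 ± 0.30 at day 7 (adjusted p = 0.476), 0.36 ± 0.30 at day 14 (adjusted p = 0.600) and −0.22 ± 0.30 at day 28 (adjusted p = 0.657). These errors do not exclude changes of the size seen in the receptor genes.

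Between the injury days, 6 of 9 members were called from day 7 to day 14, where 19.5% of all genes were called, and 5 of 9 from day 7 to day 28, where 18.7% were called. From day 7 to day 14 Igf1r and Igfbp3 were higher, with 7.59% of all genes called higher, and Igf1, Igfbp2, Igfbp4 and Igfbp7 were lower, with 12.0% of all genes called lower. All 5 calls at day 28 against day 7 were lower (Igf1, Igf2r, Igfbp2, Igfbp4 and Igfbp7), a direction that 10.8% of all genes took.

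The makeup of the binding protein transcripts differed from control at each day after injury, while the injured groups overlapped with one another in part. No test was run on these shares. Over Igfbp2 to Igfbp6, the genes of high-affinity binding proteins among the members, Igfbp3 took 40.7%, 34.7% and 34.2% of the summed TPM in the control libraries. It took 1.92%, 2.60% and 2.88% at day 7, 12.0%, 3.61% and 9.82% at day 14, and 4.71%, 4.10% and 5.84% at day 28. No injured library came near the control share. Igfbp4 took 4.32%, 7.98% and 6.69% in control, 21.1%, 31.9% and 39.8% at day 7, 10.9%, 8.50% and 15.5% at day 14 and 23.0%, 24.3% and 26.4% at day 28. All injured libraries exceeded the control shares of Igfbp4, and the day-14 shares were the lowest of the injured groups. Shares of the same sum are tied to one another, and Igfbp3, the largest part in control, fell at every day. Igfbp4 itself was not called against control at day 14 (adjusted p = 0.390). Igfbp2 took 15.4% to 17.1% in control and between 23.6% and 45.0% in the libraries after injury. Igfbp2 itself was not called against control at day 14 or 28 (adjusted p = 0.522 and 0.188). Igfbp6, not called in any comparison, took 22.5% to 25.7% in control and 20.6% to 25.3% at day 7. Its share was 34.5% to 50.5% at day 14, the largest there, and 19.1% to 38.8% at day 28. The sum itself was 1691 TPM ± 116 in control, 1939 TPM ± 476 at day 7, 1248 TPM ± 204 at day 14 and 1237 TPM ± 95.1 at day 28. Igf1 amounted to 1.75%, 3.04% and 2.46% of that sum in control and to 5.07%, 17.0% and 13.9% at day 7. It amounted to 2.53%, 2.40% and 2.85% at day 14 and to 3.14%, 7.23% and 4.31% at day 28. Every day-28 share was above the controls, the first by a narrow margin (3.14% against 3.04%). Igf1 itself was not called against control at day 28 (adjusted p = 0.317), and the sum was lower at that day. These are shares of transcripts, and protein was not measured.

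**Figure D3:**
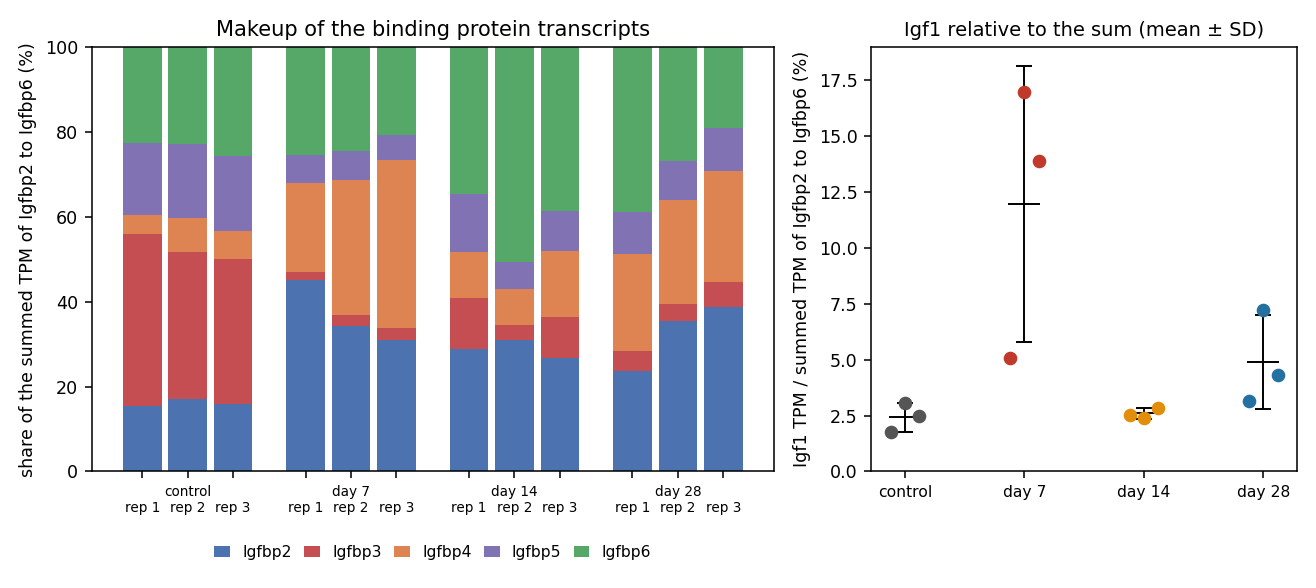
Left, share of each binding protein gene in the summed TPM of Igfbp2 to Igfbp6 (%), 1 bar per library of control and days 7, 14 and 28. Right, Igf1 TPM as a percentage of the same sum, 1 point per library with mean ± SD. Igfbp3 takes 34.2% to 40.7% of the sum in control and at most 12.0% after injury, and Igf1 reaches 17.0% of the sum in the second day-7 library.

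Other genes of the pathway were read from 5 lists of 77 genes, of which 76 are in the table and 70 were tested. At day 7, 19 were called higher and 3 lower, at day 14 1 higher and 1 lower, and at day 28 9 higher and 5 lower. Together 31.4%, 2.86% and 20% of the listed genes were called at the 3 days, near the 26.1%, 2.45% and 18.5% of all genes. The median log2 fold change of the listed genes together was 0.16 at day 7, against −0.01 over all genes tested. Of 19 tested genes of growth hormone input and binding protein proteolysis, 7 were called higher and 1 lower at day 7, 0 and 1 at day 14, and 5 and 1 at day 28 (42.1%, 5.26% and 31.6% called). None of the growth hormone input genes (Ghr, Stat5a, Stat5b, Jak2, Socs2 and Socs3) was called against control at these days.

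The proteases included the enzymes that cut the members described above. Pappa encodes PAPP-A, which cuts IGFBP4 most readily. It held 14.4, 21.7 and 20.9 CPM in control, 44.8, 75.6 and 63.9 CPM at day 7, 16.7, 23.4 and 20.4 CPM at day 14 and 35.9, 44.9 and 37.9 CPM at day 28. Like Igfbp4, Pappa stood above control in all libraries of days 7 and 28 and overlapped with it at day 14. Its change was 1.69 ± 0.21 at day 7 (adjusted p = 0.000371) and 1.06 ± 0.21 at day 28 (adjusted p = 0.00590), with 0.09 ± 0.21 at day 14 (adjusted p = 0.884). Pappa2 encodes PAPP-A2, which cuts IGFBP3 and IGFBP5. It held 10.5, 11.04 and 11.5 CPM in control, 0.51, 1.36 and 1.27 CPM at day 7, 1.64, 1.55 and 1.10 CPM at day 14 and 2.13, 1.27 and 1.19 CPM at day 28. Like Igfbp3 and Igfbp5, Pappa2 was below control in every injured library, by −3.39 ± 0.36 at day 7 (adjusted p = 0.000162), −2.95 ± 0.35 at day 14 (adjusted p = 0.00718) and −2.85 ± 0.35 at day 28 (adjusted p = 0.000383). A link between these protease genes and the members was not tested.

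Adam12, a metalloprotease gene whose product also cuts IGFBP3 and IGFBP5, moved the other way at day 7. Its level was 54.9 CPM ± 15.1 in control and 438 CPM ± 118 at day 7 (3.00 ± 0.29, adjusted p = 0.000112), with 62.6 CPM ± 5.56 at day 14 and 80.8 CPM ± 25.2 at day 28. The serine protease gene Htra1 was at 106 CPM ± 4.19 in control and 258 CPM ± 39.0 at day 7 (1.28 ± 0.18, adjusted p = 0.000579). Neither Adam12 nor Htra1 was called at day 14 or 28 against control.

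**Figure D4:**
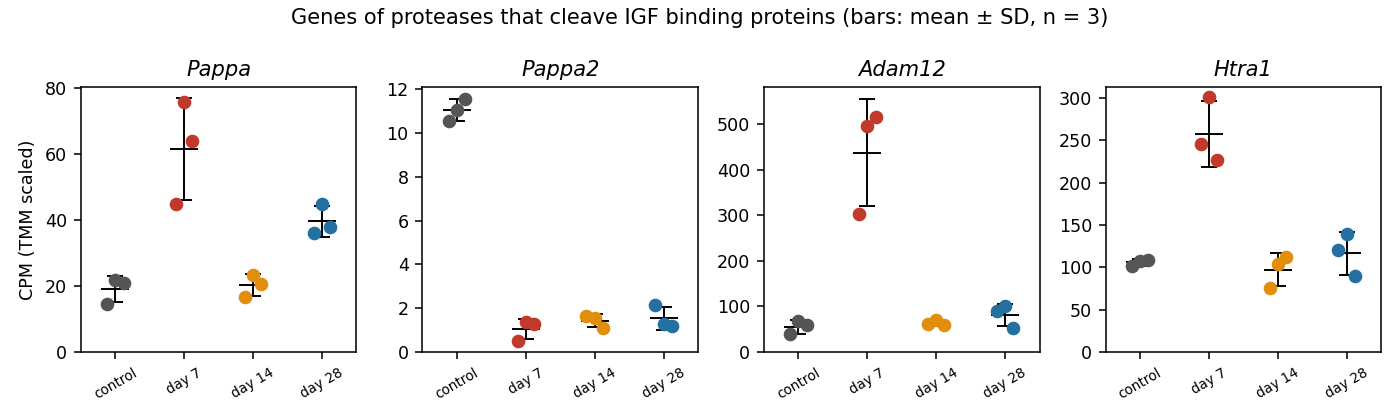
CPM after TMM scaling (vertical axis, each panel on its own scale from 0) of Pappa, Pappa2, Adam12 and Htra1 in control and at days 7, 14 and 28, with 1 point per library and bars for the mean ± SD. Pappa2 is at 10.5 to 11.5 CPM in control and at most 2.13 CPM after injury, whereas Pappa, Adam12 and Htra1 are highest at day 7.

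Of 12 tested partners of the binding proteins and of IGF2R, 8 were called higher and none lower at day 7 (66.7%, against 26.1% of all genes), none at day 14, and 2 higher at day 28 (16.7%, against 18.5%). The list was chosen with earlier results of these data known, so these shares only describe it. Fn1, the fibronectin gene, stood at 718 CPM ± 86.0 in control and 6721 CPM ± 707 at day 7 (3.23 ± 0.31, adjusted p = 0.000103). The fibronectin receptor genes Itga5 (2.97 ± 0.35, adjusted p = 0.000250) and Itgb1 (1.27 ± 0.15, adjusted p = 0.000229) were higher at day 7, as was Itgav (0.78 ± 0.13, adjusted p = 0.00129).

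Of 32 tested signal transduction genes downstream of the receptor, 3 were called higher and none lower at day 7, 1 higher at day 14, and 2 higher and 1 lower at day 28, with medians of 0.01, 0.02 and −0.07. The share called was 9.38% at day 7 and at day 28, where 26.1% and 18.5% of all genes were called. The adaptor gene Shc1 (0.91 ± 0.12, adjusted p = 0.000472) and the kinase gene Akt1 (0.51 ± 0.09, adjusted p = 0.00182) were higher at day 7. The third gene called higher at day 7 was the adaptor gene Grb10 (0.95 ± 0.26, adjusted p = 0.0188), which lies outside the naming rule. At day 28 Pik3cb, a PI3 kinase catalytic subunit gene, was higher (0.93 ± 0.11, adjusted p = 0.000284). The gene lower at day 28 was Irs1, the docking protein of the receptor (−0.99 ± 0.22, adjusted p = 0.00968); it lies outside the naming rule and was picked after its value was seen.

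Of the other ligands, receptors and carriers, 4 of 8 were tested. Igf2, the second ligand, was at 22.1 CPM ± 4.96 in control, 39.6 CPM ± 11.8 at day 7, 11.3 CPM ± 2.36 at day 14 and 16.2 CPM ± 5.74 at day 28. It was not called against control (adjusted p = 0.0542 at day 7 and 0.1097 at day 14). It was lower than at day 7 both at day 14 (−1.81 ± 0.30, adjusted p = 0.00229) and at day 28 (−1.29 ± 0.29, adjusted p = 0.0119). Igfbp1 held 9 counts and Igfals, the acid labile subunit, 18 counts over all 12 libraries, so these liver-derived partners were at the edge of detection. Insr, the insulin receptor gene, stood at 86.3 CPM ± 4.13 in control and 102 CPM ± 3.09 at day 14 (adjusted p = 0.192), and it was higher at day 14 than at day 7 (0.42 ± 0.09, adjusted p = 0.00890). Insrr was called higher at day 7 on 48 counts over the group against 4 in control. Igfbpl1 was called lower at day 7 on 13 counts and at day 28 on 5 counts, against 80 in control.

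The 3 genes of IGF2 mRNA binding proteins, which bind Igf2 and other transcripts, were all tested. Igf2bp3 was at 20.05 CPM ± 4.58 in control and 2.83 CPM ± 2.04 at day 28 (−2.83 ± 0.46, adjusted p = 0.00190), and it was also the 1 of 3 called at day 7, as lower. Igf2bp1 was at 4.86 CPM ± 1.71 in control and 0.65 CPM ± 0.63 at day 28 (−2.89 ± 0.58, adjusted p = 0.00602). Igf2bp2 was at 8.84 CPM ± 2.03 and 11.7 CPM ± 1.45 in the same groups (adjusted p = 0.221).

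Markers of several cell types differed from control at the same days as the members. For comparison, 26.1%, 2.45% and 18.5% of all genes tested were called at days 7, 14 and 28. At day 7 all 8 endothelial markers were called higher, with a summed level of 202 to 225 CPM in control and 677 to 790 CPM at day 7, and 7 of 8 were called higher at day 28 (330 to 540 CPM). All 8 macrophage markers were called higher at day 7, 3 at day 14 and all 8 at day 28. Their sum was 468 to 544 CPM in control, 1669 to 2445 CPM at day 7, 804 to 1704 CPM at day 14 and 1358 to 2222 CPM at day 28. All 4 proliferation markers were called higher at day 7, at 16.5 to 39.2 CPM in control and 310 to 438 CPM at day 7. At day 28, 3 of 4 were called higher, at 46.3 to 143 CPM. Of 5 adipocyte markers, 4 were called higher and 1 lower at day 7, 1 lower at day 14 and 2 higher at day 28. Their sum, most of it Fabp4, was 298 to 307 CPM in control, 209 to 302 CPM at day 7, 132 to 182 CPM at day 14 and 293 to 388 CPM at day 28. The fat cell gene Adipoq was at 0.15 CPM ± 0.18 in control and 20.3 CPM ± 20.4 at day 7.

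Of 8 fibroblast markers, 2 were called higher at day 7, 1 lower at day 14, and 3 lower and 1 higher at day 28. The day-7 share of 25.0% was near the 26.1% of all genes. Summed fibroblast levels were 20013 to 25747 CPM in control and 34058 to 41304 CPM at day 7. They were 9648 to 14344 CPM at day 14 and 7941 to 17149 CPM at day 28. Most of that sum is Col1a1 and Col3a1, neither of them called at day 7. The other 6 markers summed to 3155 to 4157 CPM in control and 2037 to 3637 CPM at day 7. They summed to 1888 to 3051 CPM at day 14 and 1945 to 2809 CPM at day 28, below all controls. Of 8 smooth muscle markers, 4 were called higher and 2 lower at day 7, none at day 14 and 2 lower at day 28. Their sum was 23188 to 25710 CPM in control, 25362 to 41749 CPM at day 7 and 10014 to 21785 CPM at day 28. Among 8 urothelial markers, 3 were called lower at day 7, none at day 14, and 4 lower and 1 higher at day 28. Pericyte markers (5 genes) had 2 called higher and 1 lower at day 7, 1 lower at day 14, and 1 higher and 1 lower at day 28. Mesothelial markers (4 tested) had 1 called, as lower at day 28. Of 5 Schwann cell markers, 3 were called lower at day 7, 1 at day 14 and 3 at day 28, with sums of 62.9 to 74.3 CPM in control and 23.1 to 56.2 CPM at day 7. Of 3 tested skeletal muscle markers, 2 were called higher and 1 lower at day 7. The sum of the listed markers was 111 to 117 CPM in control and 926 to 1635 CPM at day 7. Most of it was Acta1, with a mean of 70.4 CPM in control and 1168 CPM at day 7. Ckm was lower (42.9 and 12.1 CPM in the same groups), and Myh1 was higher but reached only 2.91 CPM at day 7. Summed erythroid markers ran from 149 to 719 CPM in control and from 394 to 8151 CPM at day 7. Hepatocyte markers, 4 genes with albumin among them, summed to at most 1.24 CPM in any library. In whole tissue, fewer cells of a type and less RNA per cell cannot be told apart, and the part of these cell types in the changes of the members was not tested.

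For each member called against control, the genes whose profile over the 12 libraries was most like it were found among 11088 genes, by the root mean square difference of log2 CPM centred on each gene's mean. Igf1, which itself varied by 1.18 around its mean on this measure, was closest to Dnm3 (0.28), Plk4 (0.38) and Fanci (0.38). Igfbp4 was closest to Col18a1 (0.30), Brip1 (0.35) and Fscn1 (0.35), against its own 1.05. Igfbp3 was closest to PCOLCE2 (0.56), Ces1f (0.62) and Samd5 (0.67), against its own 1.48. Igfbp5 was closest to Matn2 (0.23), Osbp2 (0.24) and Grin2c (0.24), against its own 0.58. Igfbp2 was closest to Pear1 (0.28), Mmp19 (0.29) and Thsd1 (0.29), against its own 0.63. Igfbp7 was closest to Acvrl1 (0.10), Igf1r to Syne2 (0.10) and Igf2r to Foxp1 (0.06). The values describe likeness in these libraries, which all members share, and no test was attached to them.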

How the data were processed

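Tools listed in the submitters' processing notes, with no role given, are HISAT2 2.1.0, HTSeq 0.11.2 and bcl2fastq, and the build is rn6. Per the labels, libraries were sequenced as single reads of 50 bases. The gene table deposited by the authors holds raw read counts, whole numbers per the values. The deposited TPM equal the authors' counts divided by gene length and scaled to 1000000 per library. An mRNA transcript table of deposited counts was used for Igf1 and Igf1r only, and the deposited non-coding tables were not used here because no member is in them.

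Genes were tested with edgeR 4.0.16 (R 4.3.3): filterByExpr (minimum count 10, minimum total 15), TMM scaling, then a single quasi-likelihood fit to the 4 groups. Each SE was taken as |log2 fold change| / √F. The procedure was tested on simulated counts. Depth was 26.3 to 30.7 M counts per library, so the spread between libraries, not counting, limits precision for the members. Replicates of a group differed by more than sampling noise. Alternatives were DESeq2 1.42.0, RLE factors, no TMM factor, other filters, only the 2 groups compared, a minimum |log2 fold change| of 1, the replicate number as a block, and leaving out each library.

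The members and gene lists were chosen with earlier results of these data known. All 9 members are named. Each pathway list gives up to 4 genes with the smallest p in any day against control, and Grb10 and Irs1 were added outside this rule. One gene this rule selects is not reported here. Nearest patterns are 3 genes per called member with a mean of at least 5 CPM (log2 CPM with a prior count of 2). Promoters are from RefSeq (GRCr8). Tables were handled with Python 3.11.15, pandas 2.3.3 and numpy 2.4.6 and plots drawn with matplotlib 3.10.9.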

Additional observations from a re-analysis of the deposited data

Results flagged for a closer look

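By the test of one day against another, 6 of 9 members were called between days 7 and 14 (19.5% of all genes were), 1 between days 14 and 28 (4.34%) and 5 between days 7 and 28 (18.7%). Leaving out single libraries gave 3 to 6, 0 to 2 and 3 to 5 members. From day 7 to day 14 the log2 fold change was −2.91 for Igf1, −1.17 for Igfbp2, −2.15 for Igfbp4 and −0.87 for Igfbp7, and 0.55 for Igf1r and 0.95 for Igfbp3. From day 14 to day 28 it was 1.08 for Igfbp4. From day 7 to day 28 it was −1.98 for Igf1, −0.53 for Igf2r, −0.998 for Igfbp2, −1.07 for Igfbp4 and −0.62 for Igfbp7. The calls of Igf1r, Igfbp2 and Igfbp3 between days 7 and 14, Igfbp4 between days 14 and 28, and Igfbp2 and Igfbp7 between days 7 and 28 were lost on leaving out 1 or another library.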

How the results depend on the processing

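No called log2 fold change of a member changed direction under any alternative. Over the 6 comparisons and 13 alternatives each (the minimum fold change below was applied to counts only and is not among them), 660 member values kept their side of the threshold, 36 lost a call and 6 gained one. The calls of Igf1, Igfbp2, Igfbp3, Igfbp4, Igfbp5 and Igfbp7 against control held under these 13, and those of Igf1r and Igf2r at day 7 were lost on leaving out any 1 library, where 6 members remained called. With no TMM factor the Igf2r value at day 7 was 0.25 (adjusted p = 0.0922).

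DESeq2 called 1302 genes at day 14 (433 in edgeR), and 1609 genes and 2 members from day 14 to day 28 (768 and 1). A mean of at least 5 CPM left 251 genes at day 14. A fit of only the 2 groups gave 2195 genes from day 7 to day 14 (3457 in the full model), 42 genes and 0 members from day 14 to day 28, and 3 members from day 7 to day 28 (5 in the full model). A minimum |log2 fold change| of 1 left 2346 genes and 5 members at day 7 (4622 and 8), without Igf1r, Igf2r and Igfbp7, whose changes were smaller, 1835 genes at day 28 (3275), 1470 genes and 3 members from day 7 to day 14, 472 genes from day 14 to day 28, and 1591 genes and 2 members from day 7 to day 28 (3310 and 5).

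Leaving out single libraries gave 3061 to 4888 genes at day 7 (lowest without the second day-7 library), 16 to 504 at day 14 (lowest without the second control), 1971 to 3283 at day 28 (lowest without the second control), 1959 to 3431 from day 7 to day 14 (lowest without the second day-7 library), 261 to 1120 from day 14 to day 28 (lowest without the second day-28 library) and 1954 to 3275 from day 7 to day 28 (lowest without the second day-7 library). Members called were 6 at day 7, 2 at day 14, 3 to 4 at day 28, 3 to 6 from day 7 to day 14, 0 to 2 from day 14 to day 28 and 3 to 5 from day 7 to day 28.

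With the replicate number as a block, the members called were 8, 2 and 4 at days 7, 14 and 28, 6 from day 7 to day 14, 2 from day 14 to day 28 and 5 from day 7 to day 28. The genes called were 4788, 460, 3440, 3662, 827 and 3463 in the same order. Same-numbered libraries correlated at −0.022 to 0.151 in their deviations from the group means. Every library was closest to its own number between days 14 and 28 and between days 7 and 28 (6 of 6), and 2 to 4 of 6 were in the other comparisons. The labels do not say that a number marks shared rats or days. Under the block Igf1r at day 28 (adjusted p = 0.0463) and Igf1 from day 14 to day 28 (adjusted p = 0.0428) were called.

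By CPM in place of TPM the control order moved for 7 members, with Igfbp3 at rank 1, Igf2r at 2, Igfbp7 at 3, Igf1r at 5, Igfbp2 at 6, Igfbp6 at 7 and Igfbp4 at 9, since CPM does not divide by length. With 3 libraries a group, only differences well above the spread between libraries can pass the test.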
